A study of Mus musculus with 3 samples.

Results

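The genes described here control passage through the G1 phase of the cell cycle: the D-type cyclins Ccnd1, Ccnd2 and Ccnd3, their kinase Cdk4, the inhibitors Cdkn1a, Cdkn1b, Cdkn2a and Cdkn2c, the retinoblastoma gene Rb1 and the transcription factor gene Myc. Every probe set of the array annotated to exactly 1 gene symbol, with that symbol among these 10, was taken. This gave 14 probe sets of 9889 for 10 of 7842 named genes. Of these genes 6 had 1 probe set and 4 had 2. RNA came from untreated mouse dermal fibroblasts kept in fibroblast growth medium and was hybridised to Affymetrix expression arrays. FGFR3Act cells came from Fgfr3G374Rneo- mice, in which the receptor Fgfr3 is active without ligand. FGFR3KO cells came from FGFR3G374Rneo+ mice, which carry the same change but express no functional receptor. The controls, FGFR3WT, were fibroblasts of wild-type Bl6 mice. The strain of the mutants, the age of the animals, the number of passages and the density of the cultures, which bears on cell cycle genes, are not stated in the labels. The series states 3 samples per group, but the deposited table has 1 column per genotype, and whether a column is a single culture, a pool or a mean is not given. Every difference below is therefore one between 2 arrays, with no error between cultures and no p-value.

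D-type cyclins accumulate when growth factors activate the Ras-ERK pathway, and they bind and activate the kinases Cdk4 and Cdk6. The active complex phosphorylates the retinoblastoma protein, which then releases E2F transcription factors and lets the genes of DNA replication be transcribed. Proteins of the INK4 family, such as p16Ink4a from Cdkn2a and the product of Cdkn2c, hold the G1 kinases inactive. Those of the CIP/KIP family, such as the products of Cdkn1a and Cdkn1b, act mainly on the later cyclin-CDK complexes. Myc is an immediate target of mitogens and activates genes of growth and of the cell cycle, Cdk4 among them. Many of these proteins are set by translation, phosphorylation and degradation, which an array of transcripts does not measure.

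Values are MAS5 signals, linear intensities in which the probe pairs of a probe set are summarised into 1 number. Each array was given a floor, the 40th percentile of its own probe sets without controls, equal to 123 (FGFR3Act), 122 (FGFR3KO) and 121 (FGFR3WT). Lower signals were set to the floor, and log2 was taken after that. Where a gene had 2 probe sets, the brighter one represented it in counts over genes, and both are described. Signals of different probe sets depend on their probes and were not compared with each other. The labelled cell type was checked against marker genes. All 12 fibroblast markers on the array were above the floor on each of the 3 arrays, with summed signals of 60274 (FGFR3Act), 89672 (FGFR3KO) and 64248 (FGFR3WT). Of 17 macrophage and leukocyte markers, 14 were above the floor on FGFR3Act but 1 on each of the other arrays. Their summed signals were 42347 on FGFR3Act against 1358 (FGFR3KO) and 1221 (FGFR3WT). The 1 marker above the floor on the other arrays was Cd14, and no marker was listed at 0. The 3 below the floor on FGFR3Act were Ptprc, Itgam and Aif1. The 4 smooth muscle and pericyte markers had summed signals of 1115 (FGFR3Act), 4402 (FGFR3KO) and 1645 (FGFR3WT), while the sums ran from 351 to 388 over the arrays for 4 keratinocyte markers and from 133 to 245 for 6 endothelial markers.

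Of the 10 genes, 9 were above the floor on at least 1 array and 8 on all 3. Between FGFR3Act and FGFR3WT, the FGFR3Act array had at least 2-fold more signal for Ccnd1 and Ccnd2 and at least 2-fold less for Cdkn2c. These 3 of 9 genes stand beside 8.92% of all 5244 genes measured in that pair, of which 217 (4.14%) were higher and 251 (4.79%) lower. After cyclic loess scaling of the arrays that split was 249 higher and 192 lower. None of the 9 was 2-fold apart between FGFR3KO and FGFR3WT, where 5.54% of 5184 genes were (1.93% higher and 3.61% lower). Between FGFR3Act and FGFR3KO, the FGFR3Act array had at least 2-fold more signal for Ccnd1 and Ccnd2 and at least 2-fold less for Cdk4 and Ccnd3, 4 of 9 against 15.8% of 5297 genes (8.33% higher and 7.49% lower). The median log2 difference of the 9 genes was -0.12, -0.10 and 0.09 in the 3 pairs, and that of all genes was -0.07, -0.02 and -0.05. These comparisons share arrays and so are not independent of each other. All 3 use bulk RNA, in which a change in the share of cells of a kind and a change in RNA per cell cannot be told apart.

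**Figure D1:**
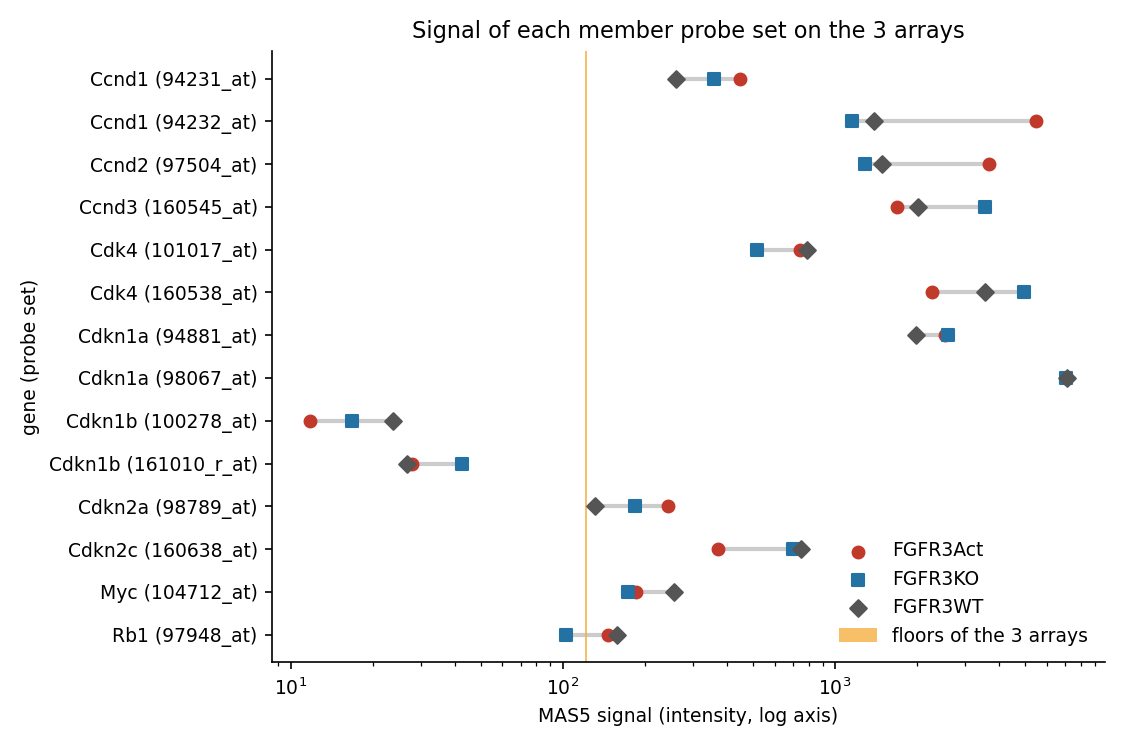
MAS5 signal (log axis) of the 14 probe sets on the FGFR3Act, FGFR3KO and FGFR3WT arrays, 1 point per array, joined by a grey line; the orange line marks the floors of the arrays (121 to 123). The FGFR3Act point of Ccnd1 (94232_at, 5491) and of Ccnd2 (3685) lies far to the right of the other arrays, the 3 points of Cdkn1a (98067_at) coincide, and both Cdkn1b probe sets lie left of the floor.

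The D-type cyclins did not share a direction. Ccnd1 encodes cyclin D1, the D-type cyclin most widely linked to ERK signalling in fibroblasts. Its brighter probe set, 94232_at, had a signal of 5491 (FGFR3Act), 1159 (FGFR3KO) and 1394 (FGFR3WT). FGFR3Act stood alone at the high end, 3.94-fold above FGFR3WT, and its difference ranked 63 from the top among the 5244 genes measured in that pair. The other probe set, 94231_at, had signals of 449, 358 and 260 on FGFR3Act, FGFR3KO and FGFR3WT. It was also highest on FGFR3Act, but only 1.73-fold above FGFR3WT. The probe sets disagreed on FGFR3KO, where 94231_at was 1.38-fold above FGFR3WT and 94232_at was 1.20-fold below. Averaged over both probe sets, the log2 difference of Ccnd1 was 1.38 above FGFR3WT and 1.29 above FGFR3KO on the FGFR3Act array, against 1.98 and 2.24 with the brighter probe set. The FGFR3Act array was also the one with the macrophage markers (summed signal 42347 against 1221 on FGFR3WT), and their part in these differences was not tested.

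Ccnd2 encodes cyclin D2, which is induced by mitogens and by Myc in several cell types. Its probe set 97504_at had a signal of 3685 (FGFR3Act), 1283 (FGFR3KO) and 1489 (FGFR3WT). The order was that of the brighter Ccnd1 probe set, with FGFR3Act apart from the other arrays at 2.47-fold above FGFR3WT and 2.87-fold above FGFR3KO. FGFR3KO and FGFR3WT lay 1.16-fold apart. That small step was a log2 difference of -0.21, and 65.9% of the genes measured in the pair were at least as far apart. The log2 difference between FGFR3Act and FGFR3WT stayed between 1.30 and 1.36 under all 10 alternative settings. The same FGFR3Act array carried the macrophage markers, whose part here was likewise not tested.

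Ccnd3 encodes cyclin D3, which also pairs with Cdk4 and Cdk6. It ran the other way, with a signal of 1684 (FGFR3Act), 3561 (FGFR3KO) and 2025 (FGFR3WT). FGFR3KO was the high array, 1.76-fold above FGFR3WT and 2.11-fold above FGFR3Act. On FGFR3Act, where the other D-type cyclins had their highest signals, Ccnd3 was 1.20-fold below FGFR3WT, a step (log2 difference -0.27) that 60.4% of genes reached or exceeded. Among the 5184 genes measured on FGFR3KO and FGFR3WT, its difference ranked 204 from the top. For the differences from FGFR3Act, the part of the macrophage markers on that array was not tested.

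Cdk4, the kinase that D-type cyclins activate, had a pair of probe sets that did not show the same order. The brighter one, 160538_at, had signals of 2279 on FGFR3Act against 4957 on FGFR3KO and 3564 on FGFR3WT. Like Ccnd3, it was highest on FGFR3KO and lowest on FGFR3Act, with 2.18-fold between them. The other, 101017_at, had signals of 742 (FGFR3Act), 516 (FGFR3KO) and 789 (FGFR3WT). It was lowest on FGFR3KO, 1.53-fold below FGFR3WT, where the brighter probe set was 1.39-fold above. With the mean of both probe sets the log2 difference between FGFR3Act and FGFR3KO was -0.30 instead of -1.12, so that Cdk4 was no longer 2-fold apart. No direction for Cdk4 on FGFR3KO was therefore shared by its probe sets. On FGFR3Act the brighter one was 1.56-fold below FGFR3WT. The other was near level there, at 1.06-fold below, a log2 difference of -0.09 beside a median of -0.07 over all genes. The FGFR3Act array also carried the macrophage markers, whose part here was not tested.

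The upstream sequences of Cdk4 and Ccnd3 are shown because the brighter Cdk4 probe set and Ccnd3 had the same order of arrays. They are the 250 bases before each annotated start, from RefSeq on build GRCm38.p6, read 5′ to 3′ on the strand of the gene. The promoter table held 6 of the 10 genes, with 10 windows. Ccnd1, Ccnd2, Myc and Rb1 were not matched. Capitals mark matches, on either strand, to the AP-1 site TGANTCA, the cAMP response element TGACGTCA and its 5-base part CGTCA, the E-box CACGTG bound by Myc with its partner Max, the E2F site TTTNGCGC, the GC box GGGCGG or the ETS site CCGGAAGT. A match to the full element would also hold its 5-base part. No other matches overlapped in the windows shown. Cdk4 lies on the + strand at chr10:127063285-127063534, and the Ccnd3 windows, also on the + strand, at chr17:47504801-47505050 (outer start) and chr17:47593217-47593466 (inner start).
Cdk4: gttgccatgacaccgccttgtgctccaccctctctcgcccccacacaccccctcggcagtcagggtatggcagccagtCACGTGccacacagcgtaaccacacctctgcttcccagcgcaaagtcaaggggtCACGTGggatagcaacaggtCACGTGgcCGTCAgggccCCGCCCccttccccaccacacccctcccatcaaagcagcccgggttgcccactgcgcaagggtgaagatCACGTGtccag
Ccnd3 outer start: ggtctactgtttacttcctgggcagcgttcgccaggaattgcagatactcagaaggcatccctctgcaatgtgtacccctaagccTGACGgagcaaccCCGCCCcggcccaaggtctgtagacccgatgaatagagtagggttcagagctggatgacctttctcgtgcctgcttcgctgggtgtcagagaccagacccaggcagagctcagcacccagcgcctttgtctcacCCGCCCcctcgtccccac
Ccnd3 inner start: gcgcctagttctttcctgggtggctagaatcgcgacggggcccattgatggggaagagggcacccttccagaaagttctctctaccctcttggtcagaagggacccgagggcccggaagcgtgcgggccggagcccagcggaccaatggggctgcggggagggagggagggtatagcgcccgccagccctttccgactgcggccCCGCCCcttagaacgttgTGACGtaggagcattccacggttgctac
The Cdk4 window held 4 E-boxes, whose first bases lay 172, 118, 98 and 11 bases before the start. An E-box was found in 6.02% of the 32851 promoter windows in the table, and 4 or more in 7 of them. The Ccnd3 windows held no E-box, and each held the 5-base CGTCA, which 17.8% of all windows held in 1 or more copies. GC boxes were present in all 3 windows shown and in 32.7% of all windows. These matches describe the letters of the windows only.

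Myc itself was dim. Its probe set 104712_at had a signal of 186 (FGFR3Act), 174 (FGFR3KO) and 256 (FGFR3WT), not far above the floors. FGFR3WT was the high array, and the mutants lay close together. Myc was 1.38-fold lower on FGFR3Act and 1.47-fold lower on FGFR3KO than on FGFR3WT, with log2 differences of -0.47 and -0.56 that 38.1% and 26.1% of genes reached or exceeded in size. Its range over the 3 arrays (log2 0.56) was a little below the median range of 4503 genes above the floor on all of them (0.60).

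Among the INK4 inhibitors, Cdkn2a was higher and Cdkn2c lower on FGFR3Act than on FGFR3WT. Cdkn2a encodes p16Ink4a and, from another first exon, p19Arf, which stabilises p53, and it commonly accumulates as fibroblasts age in culture. Probe set 98789_at had a signal of 244 (FGFR3Act), 185 (FGFR3KO) and 131 (FGFR3WT), the last close to the floor. FGFR3WT was the low array, with FGFR3Act 1.86-fold and FGFR3KO 1.41-fold above it. The log2 difference between FGFR3Act and FGFR3WT was 0.90, a size that 11.3% of genes reached or exceeded. Cdkn2c encodes p18Ink4c, an inhibitor of Cdk4 and Cdk6 found in many tissues. Probe set 160638_at had a signal of 372 (FGFR3Act), 702 (FGFR3KO) and 750 (FGFR3WT). FGFR3Act was the low array, and the others lay 1.07-fold apart. At 2.02-fold below FGFR3WT, Cdkn2c only just passed the 2-fold line. Its log2 difference of -1.01 became -0.89 after quantile normalization, -0.87 after cyclic loess, -0.99 after median centring and -0.98 where an offset replaced the floor. FGFR3Act also held the macrophage markers, and their part in either difference was not tested.

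The start regions of Cdkn2a are shown because the gene has separate starts for its products and the array has 1 probe set for it. Which transcript the probe set measured is not stated in the labels, so its signal cannot be assigned to p16Ink4a or p19Arf. The outer start, at chr4:89294620-89294869, and the inner start, at chr4:89282193-89282442, both on the - strand of GRCm38.p6, are marked as above.
Cdkn2a outer start: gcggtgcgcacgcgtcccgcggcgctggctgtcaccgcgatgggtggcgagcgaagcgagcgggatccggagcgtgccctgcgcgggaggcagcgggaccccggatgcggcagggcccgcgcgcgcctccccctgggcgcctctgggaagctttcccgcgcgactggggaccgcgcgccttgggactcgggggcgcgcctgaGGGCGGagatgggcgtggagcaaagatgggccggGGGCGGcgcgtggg
Cdkn2a inner start: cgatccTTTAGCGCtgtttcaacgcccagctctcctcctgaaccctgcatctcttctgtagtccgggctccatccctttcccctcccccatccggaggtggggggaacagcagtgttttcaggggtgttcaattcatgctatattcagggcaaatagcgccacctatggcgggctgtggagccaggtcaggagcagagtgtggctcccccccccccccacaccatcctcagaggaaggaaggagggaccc
The outer window was 78.4% G and C and held 2 GC boxes. The inner window was 60% G and C, held no GC box and held 1 match to the E2F site, a match that 1.13% of all windows had.

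Cdkn1a, a CIP/KIP inhibitor, had the smallest range of the 8 genes above the floor on all arrays, by its brighter probe set and in the deposited scaling. It encodes p21, a target of p53 and of mitogen signals that inhibits Cdk2 complexes. Its brighter probe set, 98067_at, had a signal of 7034 (FGFR3Act), 7088 (FGFR3KO) and 7113 (FGFR3WT). All 3 arrays lay within 1.01-fold, and only 0.0444% of the 4503 genes above the floor on all arrays had a range that small or smaller, Cdkn1a included. The dimmer probe set, 94881_at, had signals of 2533, 2593 and 1992 on FGFR3Act, FGFR3KO and FGFR3WT. It was lowest on FGFR3WT, by 1.27-fold against FGFR3Act and 1.30-fold against FGFR3KO. The brighter probe set was near level in the deposited scaling and after median centring, where its log2 differences from FGFR3WT were 0.0015 (FGFR3Act) and 0.03 (FGFR3KO). After quantile normalization they were -0.27 and -0.32, and after cyclic loess -0.13 and -0.17. With the mean of both probe sets they were 0.17 and 0.19.

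Cdkn1b, which encodes p27, the inhibitor that mitogens remove by degradation, could not be compared. Probe set 100278_at had signals of 11.8 on FGFR3Act against 16.8 on FGFR3KO and 23.8 on FGFR3WT, and 161010_r_at of 27.9, 42.8 and 26.8. All 6 values lay below the floors, and the probe sets did not share an order of arrays. The letter r in the second name marks a probe set for which some probe design rules were relaxed. Rb1, the target of the cyclin D kinases, was near the floor, with a signal of 146 (FGFR3Act), 102 (FGFR3KO) and 159 (FGFR3WT). It was below the floor on FGFR3KO, which put it at least 1.30-fold below FGFR3WT, and FGFR3Act and FGFR3WT lay 1.08-fold apart.

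**Figure D2:**
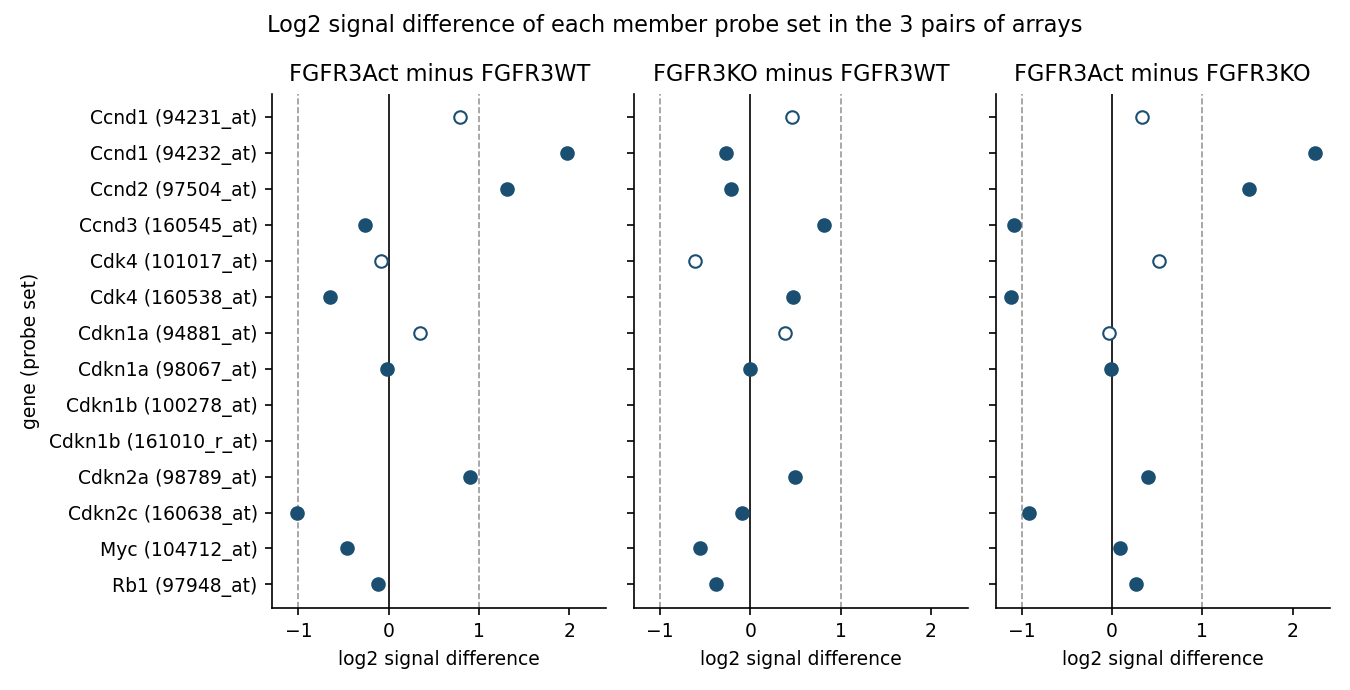
Log2 signal difference of each probe set in the 3 pairs of arrays, with filled points for the probe set that represents its gene, open points for the other probe set of a gene, and dashed lines at 2-fold; Cdkn1b, below the floor on all arrays, has no point. The filled points of Ccnd1 and Ccnd2 lie beyond the right-hand line in both pairs with FGFR3Act, the open point of Ccnd1 lies inside it in both (0.79 and 0.33), no point passes either line between FGFR3KO and FGFR3WT, and the Cdk4 points lie on opposite sides of 0 in both pairs with FGFR3KO.

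The spread between probe sets of 1 gene gives a measure of how far a single probe set can be read, though it is not an error between cultures. In the pair of FGFR3Act and FGFR3WT, 426 genes had at least 2 probe sets above the floor on both arrays. The brightest 2 of them had log2 differences of the same sign in 68.1% of genes, and the gap between these had a median of 0.30 and a 90th percentile of 0.88. Between FGFR3KO and FGFR3WT the sign was shared in 60.7% of 422 genes, with a median gap of 0.39. Between FGFR3Act and FGFR3KO it was shared in 66.8% of 407 genes, with a median gap of 0.43 and a 90th percentile of 1.26. Against these values the Ccnd1 probe sets lay far apart, with a gap of 1.19 between FGFR3Act and FGFR3WT that 4.46% of genes reached, and one of 1.92 between FGFR3Act and FGFR3KO that 1.72% reached. For Cdk4 the gap was 1.09 between FGFR3KO and FGFR3WT, reached by 5.45% of genes, and 1.64 between FGFR3Act and FGFR3KO, reached by 3.93%. Those of Cdkn1a were ordinary, with a gap of 0.36 between FGFR3Act and FGFR3WT that 43.0% reached. The 6 genes with 1 probe set were set against the 90th percentile of this gap, as a comparison of size and not a test. The gap comes from 2 probe sets on the same RNA, so it does not cover differences between cultures or in the share of cells of a kind. Between FGFR3Act and FGFR3WT (0.88), the differences of Ccnd2 (1.31), Cdkn2c (-1.01) and, narrowly, Cdkn2a (0.90) were larger in size, and those of Ccnd3, Myc and Rb1 were smaller. Rb1 was below the floor on FGFR3KO, so its differences in the pairs with that array are bounds and were not placed. Between FGFR3KO and FGFR3WT (0.94) those of all the other genes were smaller, that of Ccnd3 (0.81) included. Between FGFR3Act and FGFR3KO (1.26) that of Ccnd2 (1.52) was larger. Those of Ccnd3 (-1.08), Cdkn2c (-0.91), Cdkn2a and Myc were smaller.

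**Figure D3:**
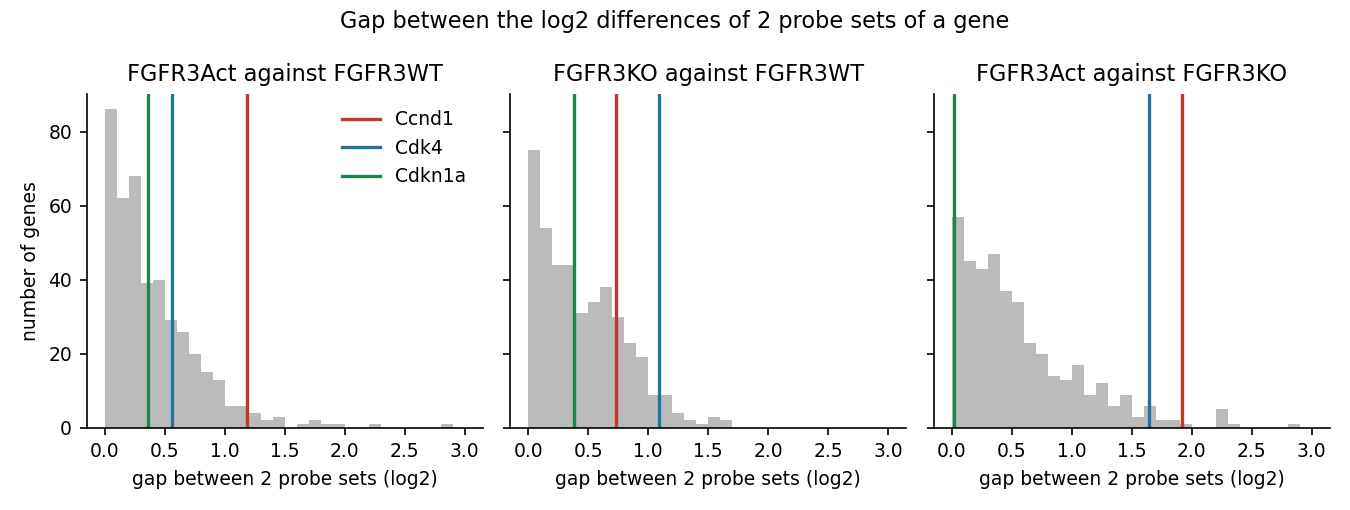
Distribution over genes of the absolute gap between the log2 differences of 2 probe sets of the same gene, for the 3 pairs of arrays (grey bars, number of genes), with coloured lines at Ccnd1 (red), Cdk4 (blue) and Cdkn1a (green). Ccnd1 lies in the right tail in both pairs with FGFR3Act (1.19 and 1.92), Cdk4 in both pairs with FGFR3KO (1.09 and 1.64), and Cdkn1a lies at 0.39 or less in each pair.

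Genes with the pattern most like each of 5 of these genes were found by the distance between log2 signals centred on their mean over the 3 arrays, among 4503 genes above the floor on all of them. With only 3 arrays many genes lie close to any pattern, and these are descriptions. Nearest to Ccnd1 were Pam (distance 0.16), Dpt (0.17) and Ptgs2 (0.18), and Ptgs2, the inducible prostaglandin synthase, had signals of 1517 (FGFR3Act), 355 (FGFR3KO) and 457 (FGFR3WT). Nearest to Ccnd2 were the urokinase receptor gene Plaur (0.052), the histone gene H3c14 (0.064), 1 of a family of near-identical copies that a probe set may not separate, and Apcdd1 (0.078). Nearest to Ccnd3 were Hspb11 (0.027), Cox6a2 (0.054) and Tesk1 (0.054). Nearest to Cdk4 were Ltbr (0.0062), Tarbp2 (0.025) and Mark2 (0.027), and nearest to Cdkn2c were Eif3k (0.013), Phpt1 (0.018) and Igf2bp1 (0.031). Ccnd1 had no gene as close as those of the others, and it had the widest range over the arrays of the 5 (log2 2.24). The genes nearest to Ccnd1 and Ccnd2 were highest on FGFR3Act, which also carried the macrophage markers. The part of those markers in the patterns was not tested.

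The rest of the G1 machinery was read from a list of other regulators of G1 and of S phase entry, of which 20 were on the array and 17 could be compared in each pair. On FGFR3Act 0 of the 17 were at least 2-fold above FGFR3WT and 2 at least 2-fold below, with a median log2 difference of -0.17, beside 4.14% and 4.79% of all genes. The 2 were Cks1b, a subunit that helps degrade p27 (386 on FGFR3Act against 976 on FGFR3KO and 913 on FGFR3WT), and cyclin A2 (Ccna2; 463, 1321 and 932). On FGFR3KO 2 of the 17 were at least 2-fold above FGFR3WT and 0 at least 2-fold below, with a median of 0.10, beside 1.93% and 3.61% of all genes. The 2 were cyclin E1 (Ccne1), which drives Cdk2 at the start of S phase, and the CIP/KIP inhibitor gene Cdkn1c. Ccne1 had signals of 644 (FGFR3Act), 777 (FGFR3KO) and 376 (FGFR3WT), so it was the wild-type array that stood apart. Cdkn1c had signals of 274, 2315 and 479, with FGFR3KO alone at the high end. The INK4 gene Cdkn2b, a neighbour of Cdkn2a in the genome, had signals of 809 (FGFR3Act), 580 (FGFR3KO) and 518 (FGFR3WT), the same order as Cdkn2a and 1 of the genes named after their values were seen. Cdkn2d, the other INK4 gene measured, had signals of 289, 414 and 384 and was lowest on FGFR3Act, as Cdkn2c was. Cdkn2a and Cdkn2b were thus higher on FGFR3Act than on FGFR3WT, by log2 0.90 and 0.64. Cdkn2c and Cdkn2d were lower, by log2 differences of -1.01 and -0.41. The Cdkn2a signal was close to the floor on FGFR3WT and cannot be assigned to p16Ink4a, the INK4 product of that gene. Macrophage markers were present on the same FGFR3Act array, and their part in the differences of these regulators was not tested.

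Downstream of Rb1, E2F target genes of DNA replication were slightly lower on FGFR3Act and higher on FGFR3KO. On FGFR3Act 2 of 19 were at least 2-fold below FGFR3WT and 0 above, with a median log2 difference of -0.21, and 16 of the 19 had the lower signal there. Of all 5244 genes in that pair, 2932 had the lower signal on FGFR3Act and 2312 the higher, and 4.79% were at least 2-fold lower. On FGFR3KO none of 20 was 2-fold apart from FGFR3WT, beside 5.54% of all 5184 genes. Of the 20, 16 had the higher signal there, as 2511 of the 5184 did, and the median was 0.45. The 2 on FGFR3Act were the ribonucleotide reductase gene Rrm1 (593 on FGFR3Act against 1812 on FGFR3KO and 1264 on FGFR3WT) and the methylation maintenance gene Uhrf1 (73.8, 373 and 268), which was below the floor on FGFR3Act. The mitotic genes act later in the cycle. They had the lower signal on FGFR3Act in 16 of 16 and the higher signal on FGFR3KO in 17 of 17. Their medians were -1.10 and 0.92. Several were below the floor on FGFR3Act, so the -1.10 rests on bounds, and a floor at the 20th percentile gave -1.60. Ccnd1 and Ccnd2 thus had their highest signals on the array where the replication and mitotic lists were lowest by their medians, and Ccnd3 had its highest on FGFR3KO, where they were highest. The medians of both lists kept their sign under all 10 alternatives in each of these pairs. Ccnd3 rests on 1 probe set. Its log2 differences were 0.81 between FGFR3KO and FGFR3WT and -1.08 between FGFR3Act and FGFR3KO. Both were smaller in size than the 90th percentile of the gap between probe sets of a gene (0.94 and 1.26). The summed macrophage marker signal was 42347 on FGFR3Act against 1358 on FGFR3KO and 1221 on FGFR3WT, and its part in the lists was not tested.

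**Figure D4:**
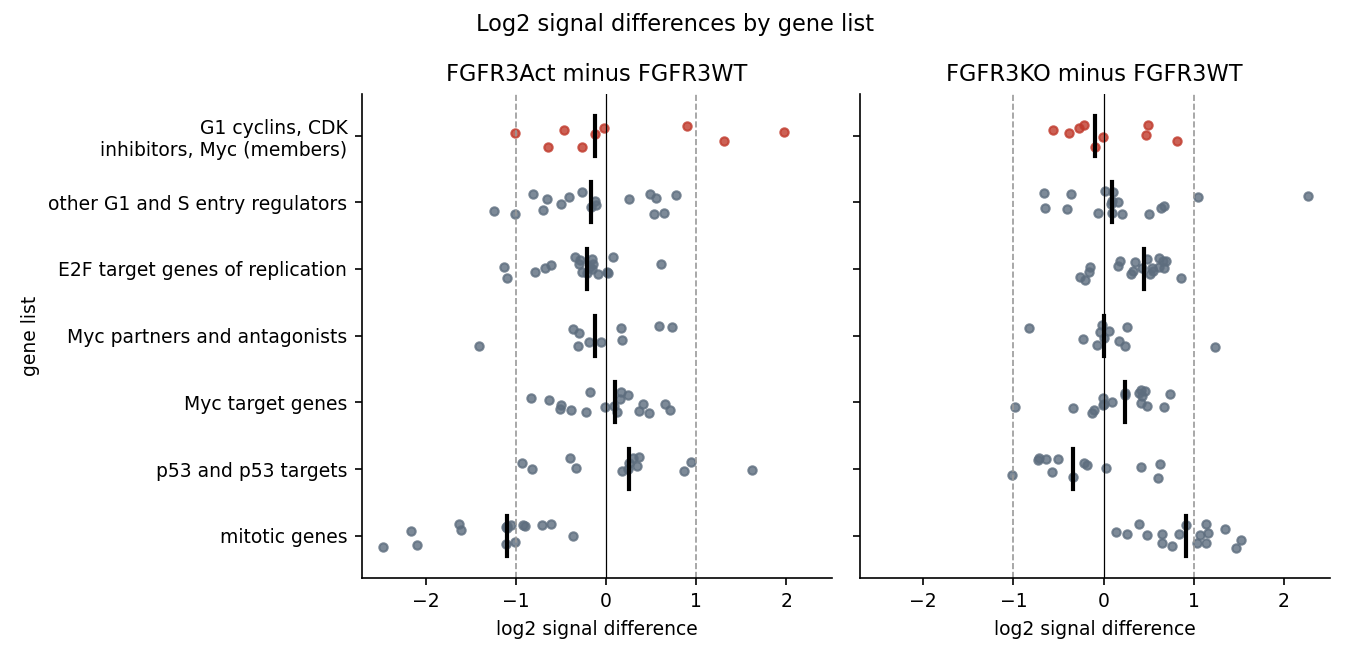
Log2 signal difference of each measured gene between FGFR3Act and FGFR3WT (left) and between FGFR3KO and FGFR3WT (right), by gene list, with black bars at list medians and dashed lines at 2-fold; vertical scatter within a list has no meaning. The 9 measured genes of the top row spread to both sides on FGFR3Act (from -1.01 to 1.98), while all mitotic genes lie left of 0 on FGFR3Act and right of 0 on FGFR3KO.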

How the data were processed

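The authors deposited 1 column of linear intensity values per genotype, made with MAS5, per the submitters' processing notes. Its version, its scaling target and any detection calls are not stated in the labels.

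Of 9889 probe sets, 9053 had exactly 1 symbol in GEO's platform annotation. Of these, 9041 were matched by gene identifier to RefSeq (GRCm38.p6) and given the symbol used there. Genes below the floor on both arrays of a pair were left out of it, and no further scaling was applied. Differences were computed in Python (pandas 2.3.3) and alternative normalizations in limma 3.58.1. The scripts were tested on simulated signals with known changes. With 1 column per genotype no test was possible, and a 2-fold line describes size only. The number of arrays limits the precision.

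Named from each list were up to 4 genes per pair, those furthest apart beyond 2-fold, and for each of the genes described that was above the floor on all arrays with a log2 range of at least 1, the 3 nearest by pattern. The genes and lists were chosen with earlier results of these data known. Cdkn2b, Cdkn2d, Max and the genes named with the marker lists were named outside this rule.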

Additional observations from a re-analysis of the deposited data

How the results depend on the processing

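Alternatives were quantile normalization, cyclic loess, centring on the median, a lower floor (20th percentile), a higher one (60th percentile), an offset of 16 in place of the floor, a filter for both arrays, no filter, the mean over probe sets, and leaving out _s_ and _x_ probe sets. Of 259 recomputed log2 differences of the genes described, 256 moved by less than 1.5-fold and 3 by more, all with the mean over probe sets: Ccnd1 against FGFR3WT (1.38) and against FGFR3KO (1.29) on FGFR3Act, and Cdk4 between FGFR3Act and FGFR3KO (-0.30). The number of these genes at least 2-fold apart was 2 or 3 between FGFR3Act and FGFR3WT, 0 between FGFR3KO and FGFR3WT under all 10 settings, and 3 or 4 between FGFR3Act and FGFR3KO. Over all genes, a floor at the 20th percentile gave 890, 592 and 1274 genes at least 2-fold apart in these pairs and one at the 60th percentile 258, 143 and 508, against 468, 287 and 838. List medians were recomputed as alternatives chosen after the data were seen. Low signals limit Myc, Rb1, Cdkn2a and Cdkn1b most. No paired analysis was possible because each genotype had 1 array column.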

Other observations

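The partners and antagonists of Myc held, among 10 measured, 1 gene 2-fold or more below FGFR3WT on the FGFR3Act array and 0 above (median log2 difference -0.12), beside 4.79% lower and 4.14% higher over all genes. This was Mxd4, which competes with Myc for Max, with signals of 973 (FGFR3Act), 2203 (FGFR3KO) and 2573 (FGFR3WT). On FGFR3KO 1 of 11 was at least 2-fold above FGFR3WT (1.93% over all genes), the S phase antagonist gene Mxd3, with signals of 37.5, 356 and 151 on FGFR3Act, FGFR3KO and FGFR3WT, the first below the floor. Max itself had signals of 1241, 825 and 822 and was highest on FGFR3Act. None of 18 Myc target genes was 2-fold apart from FGFR3WT on either mutant array, beside 8.92% of all genes on FGFR3Act and 5.54% on FGFR3KO. Their medians were 0.11 on FGFR3Act and 0.24 on FGFR3KO. The FGFR3Act array also held the macrophage markers, and their part in these differences was not tested.

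Other targets and regulators of p53 were read beside Cdkn1a. Against FGFR3WT, 1 of 13 was at least 2-fold higher and 0 lower on FGFR3Act, beside 4.14% and 4.79% of all genes. The median log2 difference was 0.25. On FGFR3KO 0 were at least 2-fold higher and 1 lower (median -0.33), beside 1.93% and 3.61% of all genes. Between FGFR3Act and FGFR3KO, 6 of 13 lay 2-fold or more towards FGFR3Act and 1 towards FGFR3KO, with a median log2 difference of 0.58, beside 8.33% higher and 7.49% lower over all genes. Perp, a membrane protein gene of apoptosis and cell adhesion, had signals of 1928 (FGFR3Act), 554 (FGFR3KO) and 629 (FGFR3WT). The kinase gene Plk2 had signals of 5203, 1909 and 2713, and the stress-induced Sesn1 343, 132 and 266. The 1 towards FGFR3KO was Ddit4, an inhibitor of mTOR signalling, at 1055, 2688 and 2011. The summed macrophage marker signal was 42347 on FGFR3Act and 1358 on FGFR3KO, and its part here was not tested.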
